A study of Homo sapiens with 11 samples.

Results

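Human cardiomyocytes kept in culture until Day 113 of differentiation (4 wells) were compared with cardiomyocytes of the same differentiation collected on Day 60 (3 wells), across all 19990 genes of the count table. The wells were chosen by their labels and make up 7 of the 11 libraries of the study, which also holds 4 wells of Day 30. Every well carried WTC11, a widely used human line of induced pluripotent cells with no edit named in the labels, at passage 63. The cells were turned into cardiomyocytes with CHIR99021, a small molecule that activates WNT signalling, followed by IWP2, which blocks WNT secretion, and were then kept in RPMI1640 with B27 supplement containing insulin. The labels of both groups give the same line, passage, protocol and medium and differ in the day of collection. Poly(A)-selected RNA of each well was sequenced as paired reads. The replicates are wells of 1 differentiation of 1 line, so the p-values below measure the spread between these wells and not that between differentiations. Replicates are called wells here and keep the numbers of the labels.

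Cardiomyocytes made from pluripotent stem cells start out fetal in character. As the heart matures, its muscle cells exchange sarcomere isoforms, build denser calcium-release and ion-channel complexes, turn from glucose to fatty acids as fuel and leave the cell cycle. Such cultures are rarely pure, since endothelial cells, fibroblasts and smooth muscle cells come from the same mesoderm, and RNA from a whole well is read from all of them together.

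The 7 libraries held between 24.1 M and 34.5 M counted fragments, with 18796 to 19533 genes detected. Genes that define cardiomyocytes were abundant in all of them: TNNT2, the cardiac troponin T used to score these cultures, read 3206, 3236 and 2536 CPM at Day 60 and 3681, 5816, 3854 and 3985 CPM at Day 113, and MYH7, the slow ventricular myosin, 8067 to 15732 CPM. Levels are counts per 1000000 counted fragments (CPM), scaled by the trimmed mean of M-values (TMM), and compare wells for 1 gene, not genes with each other. Day 113 well 2 stood apart from the other wells by transcript length. Across 10192 genes, its deviation from the mean of the other wells of its day had a Spearman correlation with length of -0.61. Short transcripts were high in it and long ones low. The correlation was 0.16 to 0.42 in the other Day 113 wells, each set against a mean that includes well 2, and -0.22 to 0.12 at Day 60. Several counts of list members are therefore also given without Day 113 well 2. The strand used in counting is not given in the sources used here, so reads of genes that overlap a neighbour on the opposite strand (ACTA2 and NPPA, for example) cannot be assigned to 1 gene with certainty.

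In all, 4790 genes changed between Day 60 and Day 113 (24.0% of those tested; edgeR's quasi-likelihood test, adjusted p under 0.05). Of these, 2570 were higher at Day 113 (12.9%) and 2220 were lower (11.1%). For 6115 genes every Day 113 well lay on one side of every Day 60 well (30.6%), of which 4340 were also called. Most changes were small: 812 genes rose and 791 fell by at least 1 on the log2 scale, and 187 rose and 141 fell by at least 3. The share called grew with expression, from 5.03% of genes under 1 CPM to 36.5% of genes at 100 CPM and over. Leaving out Day 60 well 1 gave 3317 genes, the lowest count with a well left out.

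**Figure D1:**
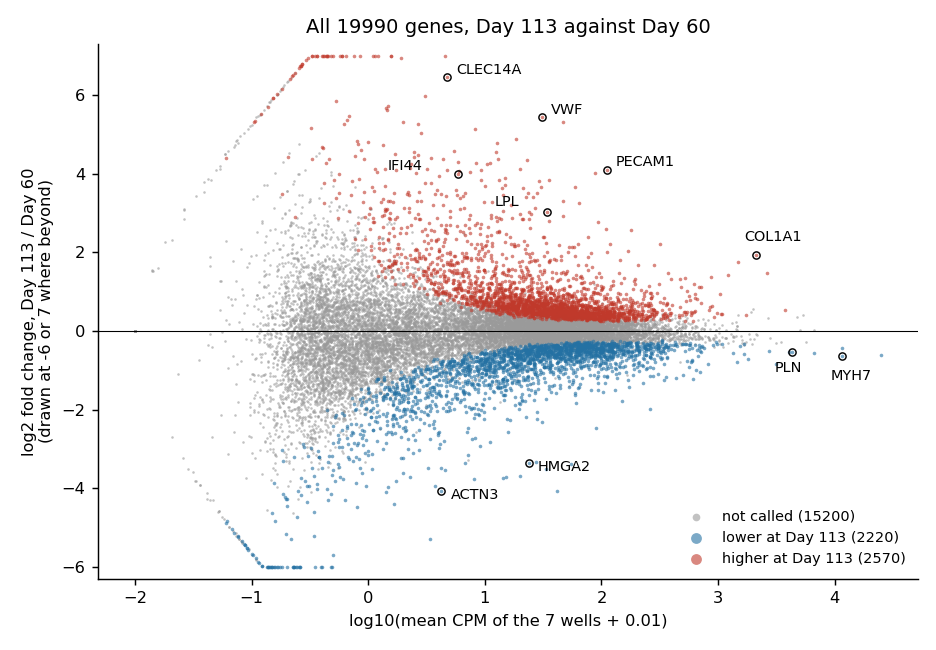
Each of the 19990 genes is a point, with the log10 of its mean CPM over the 7 wells on the horizontal axis and its log2 fold change (Day 113 over Day 60) on the vertical axis; the 2570 genes called higher are red, the 2220 called lower blue and the rest grey, with changes beyond -6 or 7 drawn at those values. Endothelial genes such as PECAM1, VWF and CLEC14A lie at the top, and HMGA2 and ACTN3 near the bottom.

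The genes that rose most among the better expressed were led by genes of blood vessels and of the interferon response. By fold, the 12 at the top were MX1, CLEC14A, IL16, VWF, PRND, INHBB, ESAM, GJA4, SAMD9L, COL5A3, LYVE1 and OAS3. Among the 12 that fell most were ACTN3, KISS1R, CRYBB3, UNC5B-AS1, DCC, LIM2, PCAT14, CRYBA2, HMGA2, HS3ST4 and LINC01474, a mixed set with 3 lens genes, an alpha-actinin of fast skeletal fibres (ACTN3), the netrin receptor DCC, the kisspeptin receptor KISS1R and 3 long noncoding RNAs. The naming rule asked for sets whose wells do not overlap between days. By absolute CPM, the largest gains were in COL3A1, COL1A1, COL1A2, TNNT2, FN1 and SPARC. The largest losses were in RNR2, the mitochondrial 16S ribosomal RNA, and in MYH7, EEF1A1, GAPDH, ENO1 and PLN. The call of EEF1A1 was lost without Day 60 well 3 (adjusted p 0.067). In whole wells, more cells of a type and more RNA per cell cannot be told apart, and this holds for every marker below. Where a well left out moved a member count by over 1.5 times, the new count is given, except that other counts of 1 to 3 members moved by 1 or 2. Member counts that compare this change with the change from Day 30 to Day 60 were not repeated with a well left out. Where no member of a list was called in a direction by edgeR's test, none had an unadjusted p under 0.05 or was called by DESeq2 or limma-voom either, with 4 exceptions. They are 1 DNA replication gene lower, 1 blood marker lower and 1 skeletal muscle marker higher, each by unadjusted p and by DESeq2, and 2 pluripotency genes lower by unadjusted p, 1 of them by DESeq2.

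**Figure D2:**
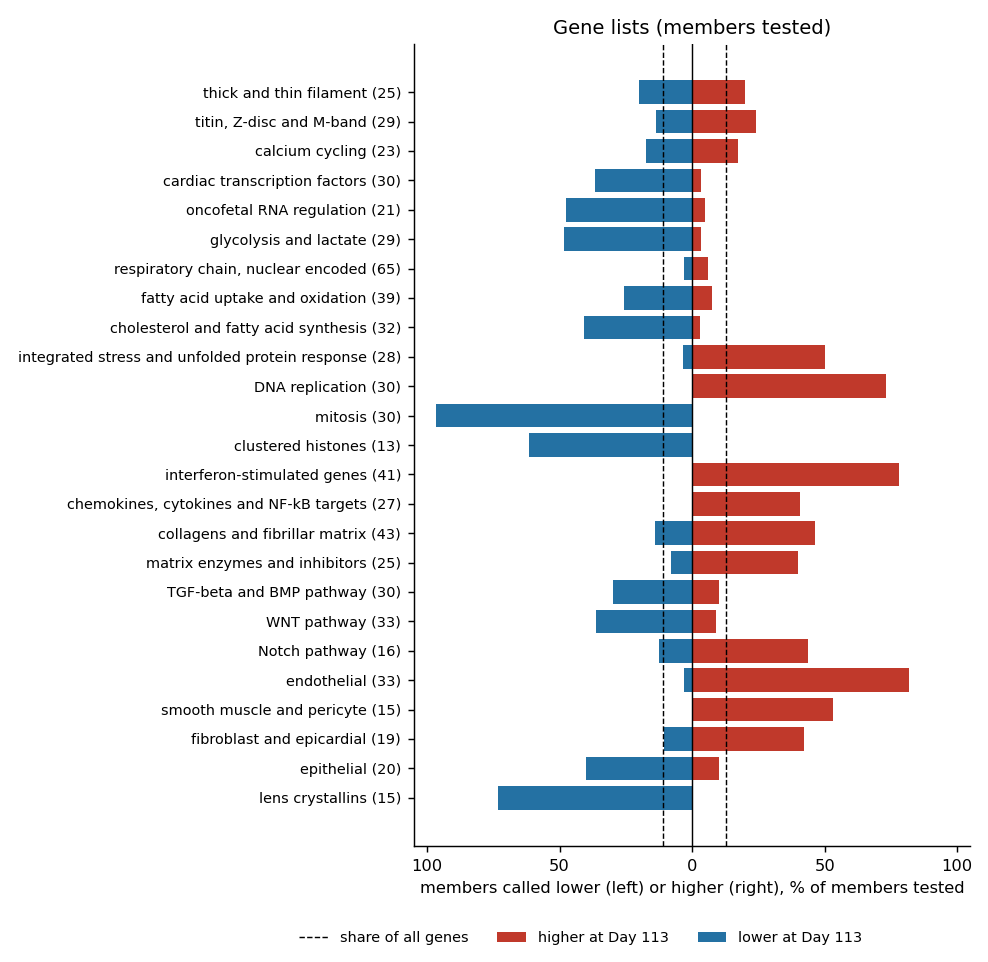
Bars give the percent of each list's tested members called higher (red, right) or lower (blue, left) at Day 113, with the number tested in brackets; the dashed lines mark the shares of all genes, 12.9% higher and 11.1% lower. Endothelial markers, interferon-stimulated genes and DNA replication genes stand far to the right, and mitosis, lens and histone genes far to the left.

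Endothelial markers were higher at Day 113 almost throughout. Of 33 tested, 27 rose and 1, PROX1, fell, with a median log2 change of 2.90 against 0.0016 over all genes. PECAM1, the CD31 adhesion molecule of endothelial junctions (chromosome 17, 64319415 to 64390860; this and other gene positions are RefSeq's, GRCh38.p14), read 8.71, 13.4 and 10.3 CPM at Day 60 and 347, 143, 169 and 84.5 CPM at Day 113. Every Day 113 well stood above every Day 60 well, by 4.11 ± 0.40 (SE, adjusted p 8.2e-06) on the log2 scale. CDH5, the VE-cadherin of the same junctions, read 7.24, 11.3 and 4.95 CPM at Day 60 and 155, 56.2, 57.6 and 37.6 CPM at Day 113. Well 1 was the highest Day 113 well for both genes and well 4 the lowest, and the change in CDH5 was 3.30 ± 0.44 (SE, adjusted p 1.0e-04), or 2.70 without Day 113 well 1. Chosen after their values were seen, the transcription factors ERG (4.28), SOX18 (4.37) and FLI1 (3.12), the tight-junction protein CLDN5 (4.36) and the vascular receptors FLT4 (3.20) and TIE1 (2.86) rose on the log2 scale as well. KDR, a receptor of vascular growth factor, rose by 1.48 ± 0.29 (SE, adjusted p 0.0019).

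Some endothelial genes were near the limit of detection at Day 60. VWF, the clotting factor stored in endothelial granules (chromosome 12, 5948877 to 6124670), read 0.255, 3.24 and 0.315 CPM at Day 60 and 117, 25, 49.6 and 20.4 CPM at Day 113. CLEC14A, an endothelial lectin (chromosome 14, 38254000 to 38256093), read 0.128, 0.147 and 0 CPM at Day 60 and 13.5, 6.45, 9.61 and 3.09 CPM at Day 113. All 4 Day 113 wells were higher for both, VWF by 5.43 ± 0.78 (SE, adjusted p 1.7e-04) and CLEC14A by 6.45 ± 0.73 (SE, adjusted p 2.7e-05), and both sizes rest on few counts at Day 60: VWF gave 7.52 without Day 60 well 2 and 4.68 without Day 113 well 1, and CLEC14A gave 5.84 without Day 60 well 3. LYVE1, a hyaluronan receptor of lymphatic vessels and some macrophages, rose by 4.40 ± 0.82 (SE, adjusted p 0.002), or 6.31 without Day 60 well 3, while PROX1, which specifies lymphatic endothelium and is also made by heart muscle, fell by 0.64 ± 0.14 (SE, adjusted p 0.0036). GJA4, a gap-junction protein of arteries, rose by 4.79 ± 0.56 (SE, adjusted p 3.5e-05). ESAM, an endothelial adhesion molecule, rose by 4.89 ± 0.56 (SE, adjusted p 2.9e-05), or 5.93 without Day 60 well 2.

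Summed over the list, endothelial markers came to 289.9, 348 and 261 CPM at Day 60 and 1649.9, 834, 926 and 560.0 CPM at Day 113. From Day 30 to Day 60 the median of the same list was -0.70, and for 22 of the 33 genes the change after Day 60 exceeded the change before it (adjusted p under 0.05 for the difference between the intervals, which 9.34% of all genes passed in either direction). The log2 difference of PECAM1 before Day 60, for example, was -0.59, which did not pass. Both intervals use the same Day 60 wells, so a low Day 60 value lowers the one and raises the other.

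The Notch pathway, which shapes arteries as well as heart muscle, was higher in part. Of 16 genes tested, 7 rose and 2 fell, with a median of 0.85. DLL4, a Notch ligand of arterial tip cells, read 1.37, 7.0 and 6.47 CPM at Day 60 and 74.6, 43.7, 36.6 and 18.9 CPM at Day 113, a change of 3.14 ± 0.49 (SE, adjusted p 3.4e-04). HEYL, a Notch target, rose by 2.11 ± 0.35 (SE, adjusted p 4.6e-04), while HEY2, a Notch target that marks compact ventricular muscle, fell by 1.17 ± 0.12 (SE, adjusted p 9.9e-06). Without Day 60 well 1, 3 Notch genes rose. The part of the endothelial sum above in these values was not tested.

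Some stromal markers and matrix genes were higher as well. Of 19 fibroblast and epicardial markers, 8 rose and 2 fell; of 15 smooth muscle and pericyte markers, 8 rose and none fell, with medians of 0.81 and 0.62. THY1, a surface marker of fibroblasts (chromosome 11, 119415476 to 119424985), read 5.36, 4.90 and 3.79 CPM at Day 60 and 59.4, 32.4, 38.7 and 23.3 CPM at Day 113. The wells were far apart between days, with a change of 3.04 ± 0.30 (SE, adjusted p 8.2e-06). TCF21 and WT1, transcription factors of the epicardium and its fibroblasts, rose by 2.11 ± 0.45 (SE, adjusted p 0.0032) and 1.12 ± 0.18 (SE, adjusted p 4.9e-04). In contrast PDGFRA, a receptor of fibroblasts and early mesoderm, fell by 1.58 ± 0.15 (SE, adjusted p 7.2e-06), and KRT19, a keratin of simple epithelia and mesothelium, fell by 1.97 ± 0.25 (SE, adjusted p 6.8e-05). Among smooth muscle genes, MCAM rose by 1.80 ± 0.21 (SE, adjusted p 3.1e-05) and TAGLN by 1.15 ± 0.19 (SE, adjusted p 5.7e-04), and CNN1 and RGS5 gave 0.01 ± 0.17 (SE, adjusted p 0.98) and -0.05 ± 0.13 (SE, adjusted p 0.83). Summed fibroblast and epicardial markers were 3500.4, 3261 and 2329 CPM at Day 60 and 10566, 5777, 8930.4 and 4572 CPM at Day 113. The list includes COL1A1 and COL3A1, which made up most of the sum in every well, and the rest of the sum was not higher at Day 113.

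Of 43 collagens and other fibrillar matrix genes, 20 rose and 6 fell, with a median of 0.45. COL1A1, a chain of the main fibrillar collagen of scar and stroma (chromosome 17, 50184101 to 50201631), read 1004, 856 and 560.2 CPM at Day 60 and 4576, 2059, 3978 and 1691 CPM at Day 113. Day 113 wells 1 and 3 were high, wells 2 and 4 lower, and the days did not overlap, with a change of 1.93 ± 0.34 (SE, adjusted p 8.1e-04). COL3A1 followed the same order of wells, at 1515, 1514 and 885 CPM at Day 60 and 5128, 2907, 4201 and 2255 CPM at Day 113. COL15A1, of vascular basement membranes, rose by 3.66 ± 0.42 (SE, adjusted p 2.9e-05), THBS2 by 3.26 ± 0.43 (SE, adjusted p 8.2e-05) and BGN, the proteoglycan biglycan, by 2.78 ± 0.45 (SE, adjusted p 4.5e-04). COL5A3 rose by 4.56 ± 0.72 (SE, adjusted p 3.7e-04), or by 5.23 without Day 60 well 1 and 3.95 without Day 60 well 3. FN1, fibronectin, rose by 1.42 ± 0.41 (SE, adjusted p 0.018), a call that was lost without Day 60 well 2 (adjusted p 0.062), without Day 60 well 3 (0.080) and with robust dispersions (0.094). The genes that fell included COL2A1, the collagen of cartilage, which read 184, 173 and 146 CPM at Day 60 and 24, 24.6, 27.5 and 45.3 CPM at Day 113 and fell by 2.47 ± 0.19 (SE, adjusted p 8.8e-07). LAMA1, an embryonic laminin chain, fell by 2.14 ± 0.15 (SE, adjusted p 4.2e-07), and COL4A6, a basement membrane chain, by 0.85 ± 0.10 (SE, adjusted p 4.7e-05).

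Enzymes that cut or cross-link matrix rose in 10 of 25 cases and fell in 2. LOXL1, which cross-links elastin, rose by 1.79 ± 0.16 (SE, adjusted p 3.7e-06), ADAMTS5, a proteoglycan protease, by 1.79 ± 0.22 (SE, adjusted p 4.4e-05), and the protease inhibitor SERPINE2 by 2.21 ± 0.31 (SE, adjusted p 1.3e-04). MMP1, interstitial collagenase (chromosome 11, 102789919 to 102798160), read 2.46, 7.04 and 2.81 CPM at Day 60 and 76.5, 63, 60.1 and 34.3 CPM at Day 113 and rose by 3.85 ± 0.35 (SE, adjusted p 5.1e-06), or by 4.47 without Day 60 well 2. The summed fibroblast and epicardial markers ranged from 2329 to 3500 CPM at Day 60 and from 4572 to 10566 CPM at Day 113. Most of this sum was COL1A1 and COL3A1, which are also in the matrix list, so it is not a separate measure of fibroblasts. No marker of the list was at 0 in every well of a day, and the part of fibroblasts in the matrix changes was not tested.

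**Figure D3:**
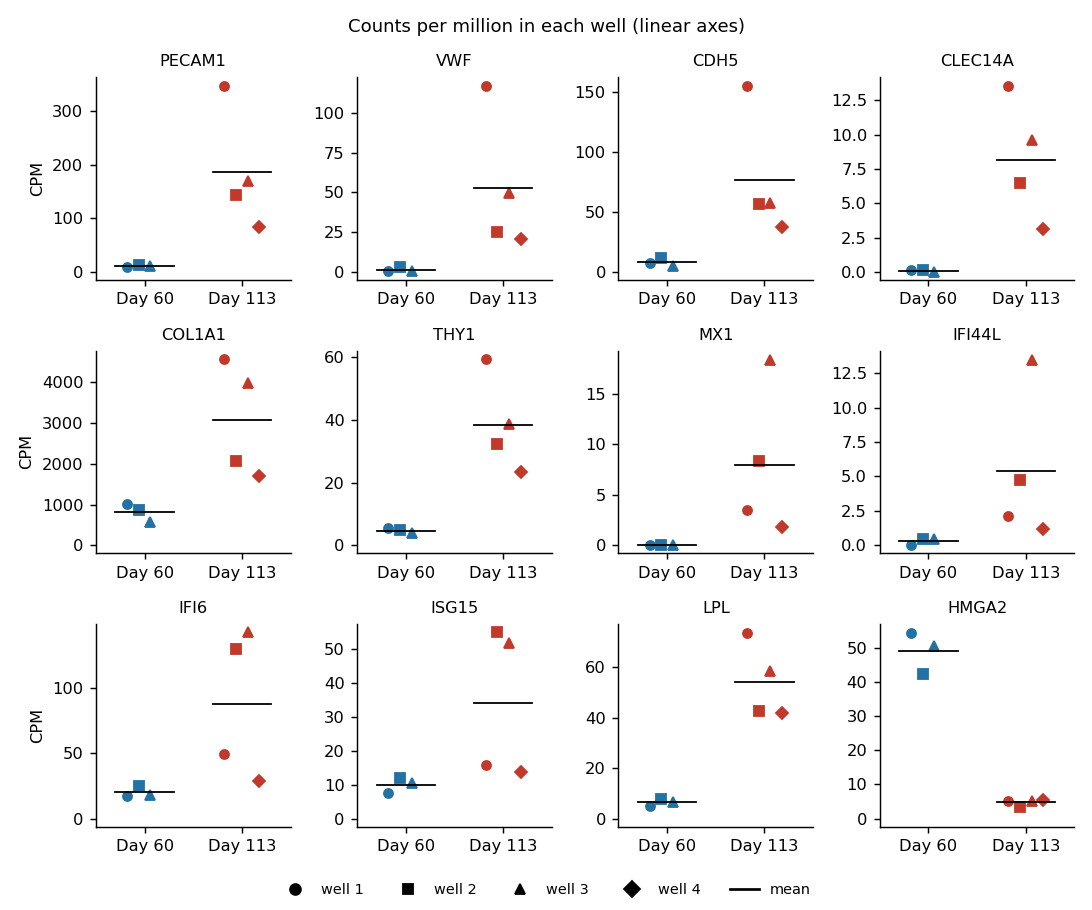
CPM of 12 genes in each well, on linear axes that differ between panels; the symbol gives the well number, the bar the mean of the day, blue Day 60 (3 wells) and red Day 113 (4 wells). PECAM1, VWF, CDH5, CLEC14A and THY1 are highest in Day 113 well 1, while MX1, IFI44L and IFI6 are highest in well 3 and ISG15 in well 2.

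Interferon-stimulated genes encode antiviral proteins, and many carry an interferon response element, a paired GAAA repeat, close to their start. Of 41 tested, 32 rose and none fell (31 and 0 without Day 113 well 2), with a median of 1.35. To show a 9-letter part of this element beside the values, 60 of the 250 bases before a RefSeq start of 5 of these genes follow. They are from GRCh38.p14 on the strand of the gene, 5′ to 3′. The part leaves out the first G of the paired repeat, which the match in OAS1 lacks. The stretch of MX1 precedes an internal start and lies within the full span of the gene given below. Capitals mark a match to AAANNGAAA on either strand.
MX1: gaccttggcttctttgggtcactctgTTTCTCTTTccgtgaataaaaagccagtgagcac
OAS1: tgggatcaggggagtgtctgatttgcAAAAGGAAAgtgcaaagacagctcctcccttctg
IFI44L: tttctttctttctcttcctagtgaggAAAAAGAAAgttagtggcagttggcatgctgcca
ISG15: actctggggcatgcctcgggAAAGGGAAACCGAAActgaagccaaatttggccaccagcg
IFI6: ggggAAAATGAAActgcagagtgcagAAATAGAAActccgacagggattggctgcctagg
The stretches lie at chr21:41431828-41431887 on the plus strand (MX1), chr12:112906883-112906942 on the plus strand (OAS1), chr1:78620350-78620409 on the plus strand (IFI44L), chr1:1013365-1013424 on the plus strand (ISG15) and chr1:27672251-27672310 on the minus strand (IFI6). Of 35 listed genes with a promoter in the RefSeq table, 29 held the 9-letter match on either strand between 250 bases before and 50 after a start (82.9%), against 12.6% of all 27305 genes and 10.5% of all 35116 windows of that length. Among matched genes that rose, 22 of 25 held it, and among tested ones that did not pass, 5 of 7. A match is a description of the letters and not evidence of binding.

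MX1, a GTPase that blocks viral replication (chromosome 21, 41420558 to 41459214), read 0.0319, 0.0369 and 0 CPM at Day 60 and 3.49, 8.36, 18.3 and 1.77 CPM at Day 113. It had 2 counts in all Day 60 wells together and 1031 at Day 113, a ratio of 383 with an exact 95% interval of 106 to 3169 that covers counting error only. Without Day 113 well 3 the ratio was 203 (55.8 to 1681). The call passed in edgeR's test (adjusted p 1.6e-04) and was lost under limma-voom (0.093). OAS1, a sensor of double-stranded RNA, had no count in any Day 60 well and read 1.07, 3.04, 6.10 and 0.722 CPM at Day 113, which is at least 27.2-fold higher when 3 counts per library stand for 0. Without Day 113 well 3 this bound was 16-fold. OAS2 and XAF1 were likewise at 0 in the 3 Day 60 wells and at least 19-fold and 19.7-fold higher, or 11.2-fold and 16.8-fold without Day 113 well 3.

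IFI44L read 0, 0.442 and 0.473 CPM at Day 60 and 2.11, 4.72, 13.5 and 1.16 CPM at Day 113, a change of 4.13 ± 1.01 (SE, adjusted p 0.01) (3.53 without Day 60 well 1), and its call was lost without Day 113 well 3 (3.12, adjusted p 0.056) and under limma-voom (0.075). IFI6, a mitochondrial survival protein, read 17.1, 24.7 and 18.3 CPM at Day 60 and 49.5, 129.6, 142 and 28.6 CPM at Day 113, a change of 2.13 ± 0.41 (SE, adjusted p 0.0017). ISG15, a ubiquitin-like modifier, read 7.69, 12 and 10.4 CPM at Day 60 and 15.8, 54.9, 51.8 and 13.6 CPM at Day 113, a change of 1.77 ± 0.41 (SE, adjusted p 0.0055). For MX1, OAS1, IFI44L, IFI6 and ISG15 wells 2 and 3 were the highest at Day 113. The order differed for others: SAMD9L read 0.351, 0.811 and 0 CPM at Day 60 and 14.9, 5.21, 11.1 and 5.30 CPM at Day 113 and was highest in well 1, and OAS2 and XAF1 were higher in well 1 than in well 2. Summed over the list, interferon-stimulated genes reached 812, 896 and 858 CPM at Day 60 and 1381, 1692, 1864 and 1143 CPM at Day 113.

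Regulators of the response were mixed. IRF9, a DNA-binding part of the factor that acts below the interferon receptor, rose by 0.96 ± 0.18 (SE, adjusted p 0.0011), and the RNA sensor IFIH1 by 1.95 ± 0.24 (SE, adjusted p 5.2e-05). IFIT1 read 72.4, 91.1 and 98.5 CPM at Day 60 and 78.8, 113, 124 and 99 CPM at Day 113 and did not pass, at 0.25 ± 0.14 (SE, adjusted p 0.23). IRF7, an amplifier of the response, stayed near 1 CPM or under in all wells, with -1.65 ± 1.03 (SE, adjusted p 0.28). The endothelial marker sum ranged from 261 to 348 CPM at Day 60 and from 560.0 to 1650 CPM at Day 113, and the part of other cell types in the interferon genes was not tested.

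Of 8 tested genes of antigen presentation by MHC class I, 5 rose, with a median of 0.55 (3 without Day 60 well 1), among them B2M, the light chain of class I molecules, which read 74.3, 67.2 and 72.5 CPM at Day 60 and 124, 201, 197 and 115 CPM at Day 113 and rose by 1.16 ± 0.17 (SE, adjusted p 2.6e-04). The classical HLA heavy chains were not analysed here. Of 27 chemokines, cytokines and targets of NF-kB, 11 rose and none fell, with a median of 1.49 (10 and 2 without Day 113 well 2; 7 rose without Day 60 well 1). IL33, an alarmin of endothelium and stroma, read 2.62, 1.47 and 1.55 CPM at Day 60 and 38.5, 16.8, 24.4 and 18.5 CPM at Day 113, a change of 3.70 ± 0.41 (SE, adjusted p 2.0e-05). CXCL8, which attracts neutrophils, rose by 2.27 ± 0.39 (SE, adjusted p 7.2e-04), IL32 by 2.61 ± 0.40 (SE, adjusted p 2.8e-04) and VCAM1, an adhesion molecule also made in the epicardium, by 0.97 ± 0.16 (SE, adjusted p 4.2e-04). IL16, a leukocyte attractant, read 0, 0.258 and 0 CPM at Day 60 and 8.28, 4.16, 6.10 and 2.69 CPM at Day 113. Its rise of 5.98 ± 1.08 (SE, adjusted p 9.6e-04) was 5.38 without Day 60 well 1 or well 3, and without well 2 the gene was at 0 in every Day 60 well left. CCL2 rose by 3.06 ± 0.71 (SE, adjusted p 0.0055), or 3.88 and 2.47 without Day 60 wells 1 and 3, and IL6, at 0 in all Day 60 wells, was at least 7.06-fold higher, with a call lost without Day 60 well 1 (adjusted p 0.053). Of 6 tested blood and macrophage markers, 2 rose: LAPTM5 by 2.33 ± 0.46 (SE, adjusted p 0.0018) and RUNX1 by 2.54 ± 0.55 (SE, adjusted p 0.0035). Their sum was 2.90 to 4.92 CPM at Day 60 and 6.34 to 17.8 CPM at Day 113, and its part in the cytokine values was not tested.

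The genes of mitosis and those of DNA replication moved in opposite directions. Of 30 mitosis genes, 29 fell and none rose, with a median of -1.13. Of 30 DNA replication genes, 22 rose and none fell (20 and 1 without Day 113 well 2), with a median of 0.84. Summed over the lists, mitosis genes came to 2392, 1721 and 2205 CPM at Day 60 and 1316, 701, 728 and 1138 CPM at Day 113, and replication genes to 647, 710.2 and 663 CPM at Day 60 and 1061, 1208, 987 and 1131 CPM at Day 113. Neither sum overlapped between days, and within Day 113 mitosis genes were higher in wells 1 and 4 than in wells 2 and 3.

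TOP2A, the topoisomerase that untangles chromosomes before division (chromosome 17, 40388525 to 40417896), read 391, 264 and 374 CPM at Day 60 and 189, 86.2, 98.6 and 173 CPM at Day 113. All 4 Day 113 wells lay below the lowest Day 60 well, with a change of -1.33 ± 0.22 (SE, adjusted p 5.3e-04). CCNB1, cyclin B1, read 77.4, 56 and 65.2 CPM at Day 60 and 31.5, 15.1, 18.1 and 23.9 CPM at Day 113 and fell by 1.58 ± 0.20 (SE, adjusted p 6.1e-05). CDC20 and PLK1, which drive the exit from mitosis and spindle assembly, fell by 1.86 ± 0.22 (SE, adjusted p 4.2e-05) and 1.77 ± 0.23 (SE, adjusted p 7.7e-05), and KIF20A, a kinesin of cytokinesis, by 1.84 ± 0.34 (SE, adjusted p 0.0013). MKI67, the Ki-67 antigen, fell by 0.87 ± 0.22 (SE, adjusted p 0.0094), with Day 113 well 1 at 82.8 CPM and Day 60 well 2 at 82.4 CPM, and the call was lost without Day 60 well 1 (adjusted p 0.065).

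Among replication genes, PCNA, the sliding clamp of DNA polymerase (chromosome 20, 5114953 to 5126622), read 19.9, 22.9 and 21 CPM at Day 60 and 38.7, 60.2, 39.4 and 50.7 CPM at Day 113, a change of 1.15 ± 0.17 (SE, adjusted p 1.8e-04). E2F1, which activates many genes of S phase (chromosome 20, 33675477 to 33686385), read 13.1, 19.9 and 12.8 CPM at Day 60 and 33.7, 56.6, 34.4 and 43.4 CPM at Day 113, a change of 1.46 ± 0.21 (SE, adjusted p 1.5e-04). The wells did not overlap for either gene. CDC6, which loads the helicase onto origins, rose by 1.40 ± 0.22 (SE, adjusted p 3.8e-04), UHRF1, which keeps DNA methylation through replication, by 1.89 ± 0.33 (SE, adjusted p 7.7e-04) and E2F2 by 1.97 ± 0.49 (SE, adjusted p 0.0081). The ribonucleotide reductase subunit RRM2, thymidylate synthase TYMS and MCM2 gave 0.28 ± 0.16 (SE, adjusted p 0.23), -0.24 ± 0.15 (SE, adjusted p 0.29) and 0.37 ± 0.14 (SE, adjusted p 0.064).

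Promoters of the replication list often hold a site of the E2F type. It is shown in capitals in 60 of the 250 bases before a RefSeq start of 2 genes that rose, 5′ to 3′ on the strand of the gene (RefSeq, GRCh38.p14).
PCNA: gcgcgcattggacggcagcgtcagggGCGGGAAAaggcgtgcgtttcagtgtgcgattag
E2F1: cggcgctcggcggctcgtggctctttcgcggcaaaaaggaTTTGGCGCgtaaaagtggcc
The stretches lie at chr20:5126648-5126707 on the minus strand (PCNA) and chr20:33686386-33686445 on the minus strand (E2F1). The letters TTTCCCGC or TTTGGCGC, on either strand, stood in 16 of 26 replication genes with a RefSeq promoter (61.5%), in 2 of 25 mitosis genes (8.00%) and in 2.75% of all genes. Of the replication genes with a promoter, 13 of the 19 that rose and 3 of the 7 that did not pass held them.

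**Figure D4:**
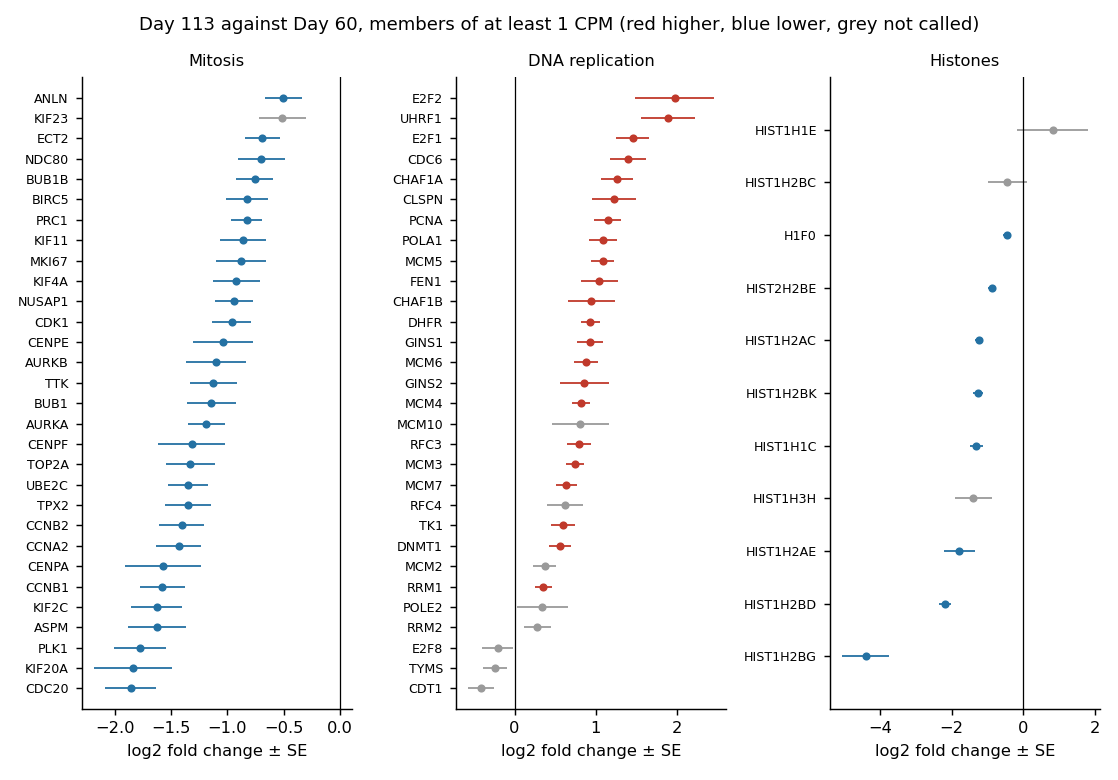
Points give the log2 fold change of Day 113 over Day 60 with its standard error for the members of the mitosis, DNA replication and histone lists that reach 1 CPM; red is called higher, blue called lower and grey not called. The mitosis panel lies left of 0, as do all but 1 of the histone genes shown, and 27 of the 30 replication genes lie right of it.

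The same lists had behaved otherwise before Day 60. From Day 30 to Day 60 the median of the mitosis list was 0.63 and that of the replication list -0.0035. For 28 of the 30 mitosis genes the change after Day 60 was below the change before it, and for 14 of the 30 replication genes it was above. Of all genes, 9.34% passed for this difference in either direction, and both intervals use the same Day 60 wells. TOP2A rose by 1.01 before Day 60, and the log2 difference of PCNA was 0.10, which did not pass.

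Of 13 histone genes tested, 8 were lower and none higher, with a median of -1.28. HIST1H2BD, a core histone gene of the H2B family, read 47.6, 39.4 and 35.8 CPM at Day 60 and 11.1, 7.24, 7.42 and 10 CPM at Day 113, a change of -2.19 ± 0.16 (SE, adjusted p 7.7e-07). HIST1H1C fell by 1.32 ± 0.18 (SE, adjusted p 1.3e-04) and HIST1H2AC by 1.25 ± 0.11 (SE, adjusted p 3.9e-06). Most messages of the canonical histones end in a stem-loop and not in a poly(A) tail, so a poly(A)-selected library reads only their polyadenylated part. Cell-cycle inhibitors and senescence genes were mixed, with 10 of 24 higher and 5 lower. CDKN1A, p21, fell by 0.62 ± 0.15 (SE, adjusted p 0.0073), and CDKN1C, p57, by 1.86 ± 0.27 (SE, adjusted p 1.7e-04). CDKN2A rose by 1.46 ± 0.42 (SE, adjusted p 0.019), a call lost without Day 60 well 1 (adjusted p 0.091), Day 60 well 3 (0.078) or Day 113 well 2 (0.053).

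The contractile genes moved in both directions. Over all genes 12.9% rose and 11.1% fell, and 36.5% of genes at 100 CPM and over were called in either direction. Of the filament list below, 40% was called. Of 25 thick and thin filament genes, 5 rose (8 without Day 113 well 1) and 5 fell, with a median of 0.02, and the list summed to 53347, 46830.2 and 45406 CPM at Day 60 and 45876, 58472, 46808 and 43599.8 CPM at Day 113. MYH7, the slow ventricular myosin heavy chain, read 15732, 14582 and 13251 CPM at Day 60 and 10303, 9381, 9355 and 8067 CPM at Day 113. Its Day 113 wells all lay below Day 60, by 0.65 ± 0.14 (SE, adjusted p 0.004). MYL2, the ventricular light chain, rose to 789 ± 270.1 (SD, n = 4) CPM from 441 ± 16.7 (SD, n = 3) CPM, by 0.84 ± 0.22 (SE, adjusted p 0.011), whereas the atrial light chain MYL7 gave 0.02 ± 0.14 (SE, adjusted p 0.93). TNNI3 and TNNI1, the adult and fetal troponins I, gave 0.31 ± 0.14 (SE, adjusted p 0.13) and 0.01 ± 0.13 (SE, adjusted p 0.95). TNNT2 rose by 0.53 ± 0.17 (SE, adjusted p 0.028), a call that was lost without Day 60 well 1 (adjusted p 0.056), Day 60 well 3 (0.15) or Day 113 well 2 (0.056).

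TNNT3 and ACTN3, known from fast skeletal fibres, were among the larger decreases. They were the only 2 of 14 skeletal muscle markers that fell, and none rose. That is 14.3% of the list, beside 11.1% of all genes called lower. TNNT3, fast skeletal troponin T, read 6.45, 10.3 and 7.22 CPM at Day 60 and 0.289, 0.787, 2.17 and 0.802 CPM at Day 113. ACTN3, the alpha-actinin of fast fibres (chromosome 11, 66546395 to 66563334), read 9.48, 9.73 and 8.11 CPM at Day 60 and 0.462, 0.450, 0.628 and 0.602 CPM at Day 113. Neither gene overlapped between days, and ACTN3 fell by 4.08 ± 0.31 (SE, adjusted p 9.5e-07) and TNNT3 by 2.96 ± 0.46 (SE, adjusted p 3.3e-04), or 3.70 without Day 113 well 3. MYH7B, a slow-tonic myosin that overlaps another gene, fell by 1.24 ± 0.13 (SE, adjusted p 1.0e-05) after having changed by 1.15 before Day 60 (adjusted p 2.5e-05 for the difference between the intervals). ACTA2, the smooth muscle actin that is also made by fetal cardiomyocytes, rose by 1.27 ± 0.16 (SE, adjusted p 6.1e-05), as did the tropomyosin TPM3 by 0.93 ± 0.15 (SE, adjusted p 3.9e-04). The summed smooth muscle markers, which include ACTA2, were 1465, 1222 and 1257 CPM at Day 60 and 2345, 1939.8, 1962 and 1595 CPM at Day 113, and their part in these changes was not tested.

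In the Z-disc, M-band and titin list, 7 of 29 genes rose and 4 fell (2 without Day 113 well 1). That is 37.9% of the list, beside 36% of the dystrophin-complex list below and 36.5% of all genes at 100 CPM and over. XIRP2, an actin-binding protein of the intercalated disc, read 13.3, 7.92 and 6.12 CPM at Day 60 and 42.3, 24.1, 37.1 and 37.9 CPM at Day 113, a change of 1.95 ± 0.25 (SE, adjusted p 6.5e-05). ANKRD1, a stretch-responsive repressor, rose by 1.12 ± 0.18 (SE, adjusted p 3.9e-04), and CSRP3, muscle LIM protein, fell by 0.83 ± 0.12 (SE, adjusted p 2.0e-04). TTN was not called, at -0.28 ± 0.24 (SE, adjusted p 0.46), with Day 113 well 2 at 2535 CPM and the other 3 wells at 5573 to 6744 CPM. Among dystrophin-complex, T-tubule and intercalated-disc genes, 5 of 25 rose and 4 fell: SGCD, delta-sarcoglycan, rose by 2.53 ± 0.42 (SE, adjusted p 5.1e-04), and the gap-junction proteins GJA1 and GJA5 by 0.70 ± 0.11 (SE, adjusted p 3.1e-04) and 1.07 ± 0.20 (SE, adjusted p 0.0011). The desmosomal genes DSP, DSG2 and DSC2 fell, with log2 values of -0.76, -0.88 and -0.59.

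**Figure D5:**
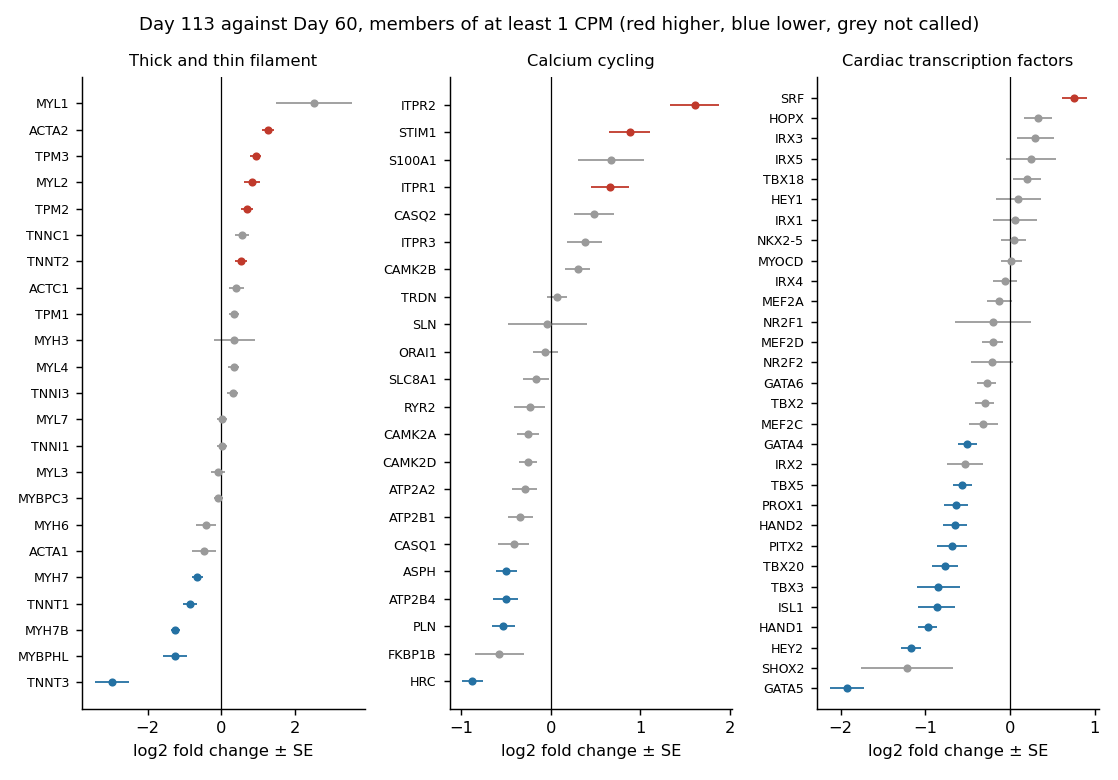
Log2 fold changes of Day 113 over Day 60 with standard errors for filament, calcium-cycling and cardiac transcription factor genes of at least 1 CPM (1 calcium gene not shown); red is called higher, blue called lower and grey not called. Filament genes spread to both sides of 0, and 11 of the 30 transcription factors are blue.

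Calcium cycling showed 4 genes higher and 4 lower of 23. That is 34.8% of the list, beside 24.0% of all genes and 36.5% of all genes at 100 CPM and over. ITPR2, a calcium-release channel (chromosome 12, 26335352 to 26833194), read 5.04, 6.01 and 5.84 CPM at Day 60 and 20.6, 12, 23.6 and 12.4 CPM at Day 113, a change of 1.61 ± 0.27 (SE, adjusted p 6.1e-04), with every Day 113 well above Day 60. STIM1, the sensor that opens calcium entry when stores run low, rose by 0.88 ± 0.23 (SE, adjusted p 0.01), a call lost without Day 60 well 3 (adjusted p 0.057). PLN, phospholamban, and HRC, which buffers calcium in the sarcoplasmic reticulum, fell by 0.53 ± 0.13 (SE, adjusted p 0.0069) and 0.88 ± 0.11 (SE, adjusted p 7.3e-05). The core pump and release channel did not pass, with -0.29 ± 0.14 (SE, adjusted p 0.14) for ATP2A2 and -0.24 ± 0.17 (SE, adjusted p 0.35) for RYR2. Without Day 60 well 3, 2 genes of the list rose.

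Of 28 potassium channel genes, 5 were higher and 5 lower (3 without Day 60 well 1). The share called was 35.7% here, 35% in the sodium, calcium and pacemaker list below and 20.8% in the adrenergic list. It was 24.0% over all genes and 36.5% over those at 100 CPM and over. KCNJ2, the main inward rectifier of ventricular muscle, read 1.21, 1.84 and 1.23 CPM at Day 60 and 6.41, 10.1, 5.42 and 2.17 CPM at Day 113 and rose by 2.08 ± 0.45 (SE, adjusted p 0.0038), while KCNJ12 and KCNJ4, other inward rectifiers, fell by 0.84 ± 0.19 (SE, adjusted p 0.0052) and 1.18 ± 0.33 (SE, adjusted p 0.016), the latter a call lost without Day 60 well 1 (adjusted p 0.061). KCNIP2, an accessory subunit of the channels of the transient outward current, rose by 1.02 ± 0.16 (SE, adjusted p 2.8e-04). Of 20 sodium, calcium and pacemaker channel genes, 2 rose and 5 fell. CACNA1D, a calcium channel of the sinus node, read 45.5, 30.8 and 35.7 CPM at Day 60 and 13.6, 10.2, 11.4 and 18.3 CPM at Day 113, a change of -1.48 ± 0.18 (SE, adjusted p 4.2e-05). CACNA1H, a T-type calcium channel, fell by 1.52 ± 0.24 (SE, adjusted p 3.8e-04) and HCN4 by 0.52 ± 0.13 (SE, adjusted p 0.0078), a call lost without Day 60 well 1 (adjusted p 0.063). The L-type calcium channel CACNA1C did not pass, at 0.06 ± 0.13 (SE, adjusted p 0.78). Of 24 genes of adrenergic, muscarinic and cyclic nucleotide signalling 3 rose and 2 fell, and the beta receptor ADRB1 gave 0.14 ± 0.52 (SE, adjusted p 0.89).

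Cardiac transcription factors were lower at Day 113 in 11 of 30 cases and higher in 1, SRF, with a median of -0.29. HEY2, a repressor of ventricular muscle, read 175, 159.5 and 152 CPM at Day 60 and 79.7, 78, 61.4 and 68.9 CPM at Day 113, with all Day 113 wells lower. TBX20 read 906, 739.9 and 712 CPM at Day 60 and 516, 327, 519 and 486 CPM at Day 113, a change of -0.77 ± 0.15 (SE, adjusted p 0.0017), and GATA4 fell by 0.51 ± 0.11 (SE, adjusted p 0.0037), TBX5 by 0.56 ± 0.12 (SE, adjusted p 0.0025) and HAND1 by 0.97 ± 0.11 (SE, adjusted p 2.9e-05). NKX2-5 was not called, at 0.04 ± 0.14 (SE, adjusted p 0.88). Of hormone and receptor genes, 6 of 20 natriuretic, endothelin and angiotensin genes rose and 1 fell, with a median of 0.37. NPPA, the atrial natriuretic peptide, read 311, 220.1 and 235 CPM at Day 60 and 596, 754, 697 and 497 CPM at Day 113, a change of 1.32 ± 0.22 (SE, adjusted p 5.7e-04), and APLN, apelin, rose by 2.00 ± 0.27 (SE, adjusted p 1.1e-04). NPR1, the receptor of natriuretic peptides, and EDN1, endothelin, both made by endothelium as well, rose by 2.47 ± 0.38 (SE, adjusted p 2.8e-04) and 1.51 ± 0.27 (SE, adjusted p 0.001). The part of the endothelial markers in those values was not tested.

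Of 21 oncofetal RNA regulators, 10 were lower and 1 higher, with a median of -0.41. Summed over the list they came to 1915, 1828 and 1867 CPM at Day 60 and 1852, 1834, 1959 and 1884 CPM at Day 113, with overlap between the days. HMGA2, a chromatin protein of embryonic growth (chromosome 12, 65824460 to 65966291), read 54.4, 42.4 and 50.5 CPM at Day 60 and 5.05, 3.56, 5.11 and 5.46 CPM at Day 113. Its fall of 3.35 ± 0.15 (SE, adjusted p 4.6e-09) had the lowest adjusted p among the genes named here, and its log2 change before Day 60 was -1.71. LIN28B, which blocks the maturation of let-7 microRNAs, fell by 1.74 ± 0.23 (SE, adjusted p 8.1e-05), and TRIM71 and ARID3A, both known let-7 targets, by 1.46 ± 0.14 (SE, adjusted p 8.5e-06) and 1.37 ± 0.11 (SE, adjusted p 2.4e-06). IGF2BP1 fell by 0.66 ± 0.11 (SE, adjusted p 4.6e-04). DLK1, an imprinted growth regulator, was the gene that rose, at 35, 37.3 and 25.8 CPM at Day 60 and 77.4, 137, 131 and 72.9 CPM at Day 113.

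Genes of glucose use were lower at Day 113 far more often than higher. Of 29 glycolysis and lactate genes, 14 were lower and 1 higher (18 and 0 without Day 113 well 2), with a median of -0.35 and a summed level of 33669, 28471 and 28782 CPM at Day 60 and 19547, 24871, 23215 and 21816 CPM at Day 113. HK2, an inducible hexokinase, read 323, 256 and 184 CPM at Day 60 and 116, 69.6, 135 and 109 CPM at Day 113, a change of -1.24 ± 0.20 (SE, adjusted p 3.9e-04). SLC2A1, the GLUT1 glucose transporter, read 764, 796 and 613 CPM at Day 60 and 250.4, 269, 436 and 378 CPM at Day 113, a change of -1.12 ± 0.18 (SE, adjusted p 3.7e-04), and SLC2A4, the insulin-regulated GLUT4, fell by 0.98 ± 0.18 (SE, adjusted p 0.0011). ENO2, ENO1 and GAPDH fell by 1.18 ± 0.15 (SE, adjusted p 5.1e-05), 0.83 ± 0.13 (SE, adjusted p 2.5e-04) and 0.55 ± 0.11 (SE, adjusted p 0.0019), and LDHA gave -0.34 ± 0.12 (SE, adjusted p 0.052). Of 20 genes of the hypoxia response, which share members with this list, 5 fell and none rose. NDRG1, BNIP3 and VEGFA fell by 1.54 ± 0.18 (SE, adjusted p 3.5e-05), 0.73 ± 0.12 (SE, adjusted p 3.7e-04) and 0.64 ± 0.12 (SE, adjusted p 0.0011), and the median of the list was -0.21.

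Genes of fatty acid use moved in both directions, with more members called lower than higher. Of 39, 3 rose (6 without Day 113 well 1) and 10 fell (6 without Day 60 well 1), with a median of -0.08. That is 33.3% of the list, beside 24.0% of all genes and 36.5% of all genes at 100 CPM and over. LPL, the lipase that releases fatty acids from circulating lipid, read 5.23, 7.89 and 6.75 CPM at Day 60 and 73.8, 42.7, 58.5 and 42.1 CPM at Day 113. It rose by 3.04 ± 0.23 (SE, adjusted p 8.8e-07), after 2.28 in the first interval. DECR1 and ACADM, mitochondrial oxidation enzymes, rose by 0.77 ± 0.13 (SE, adjusted p 4.8e-04) and 0.43 ± 0.11 (SE, adjusted p 0.011). The regulators PPARGC1A, ESRRG, PPARA and ESRRB fell by 0.95 ± 0.21 (SE, adjusted p 0.0048), 0.76 ± 0.13 (SE, adjusted p 6.0e-04), 0.55 ± 0.12 (SE, adjusted p 0.0047) and 2.71 ± 0.43 (SE, adjusted p 3.9e-04), and the transporter CD36 gave -0.00 ± 0.18 (SE, adjusted p 1).

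The respiratory chain list depended on the well that stands apart by length. Of 65 nuclear-encoded genes of the chain, 4 rose and 2 fell, with a median of 0.06. That is 9.23% of the list, beside 8.77% of the ribosomal protein list and 30.8% of the citric acid list below. The share was 24.0% over all genes and 36.5% over those at 100 CPM and over. The genes of the chain named below are the 2 that fell. Without Day 113 well 2, 2 rose and 9 fell, without Day 113 well 1, 11 rose, and without Day 60 well 1 none did. Its sum was 11349.6, 11149 and 10861 CPM at Day 60 and 8960.3, 13710.3, 9961 and 11704 CPM at Day 113, with well 2 the highest of the 7. SDHA, of complex II, fell by 0.70 ± 0.11 (SE, adjusted p 3.5e-04), and COX6A2, the heart and skeletal muscle isoform of a complex IV subunit, by 0.99 ± 0.17 (SE, adjusted p 5.8e-04). Cytosolic ribosomal protein genes, which are short, gave 1 higher and 4 lower of 57, 0 and 26 without Day 113 well 2 and 0 lower without Day 60 well 2. In the cycle of citric acid and the use of ketones and branched-chain amino acids, 2 of 26 rose and 6 fell. CS, citrate synthase, fell by 0.46 ± 0.09 (SE, adjusted p 0.0016) and IDH2 by 0.50 ± 0.12 (SE, adjusted p 0.0077). MB, myoglobin, fell by 0.45 ± 0.11 (SE, adjusted p 0.0084), and GATM, which makes the precursor of creatine, rose by 0.79 ± 0.11 (SE, adjusted p 1.1e-04).

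Sterol and fatty acid synthesis fell in 13 of 32 genes and rose in 1, with a median of -0.22 (8 lower without Day 60 well 1). SREBF2, the regulator of these genes, read 494, 458 and 443 CPM at Day 60 and 255, 283, 303 and 313 CPM at Day 113, a change of -0.69 ± 0.10 (SE, adjusted p 1.5e-04). The sterol enzyme SC5D fell by 1.05 ± 0.13 (SE, adjusted p 6.6e-05) and the desaturase SCD by 0.83 ± 0.15 (SE, adjusted p 7.7e-04).

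Genes induced by stress in protein folding and amino acid supply rose in 14 of 28 cases and fell in 1 (13 and 1 without Day 113 well 2), with a median of 0.39. TRIB3, a pseudokinase induced by ATF4 (chromosome 20, 380760 to 397559), read 6.77, 3.94 and 5.17 CPM at Day 60 and 57.7, 35.4, 32.9 and 26.6 CPM at Day 113, a change of 2.85 ± 0.27 (SE, adjusted p 6.4e-06). SLC7A5 and SLC7A11, amino acid transporters, rose by 1.67 ± 0.29 (SE, adjusted p 7.5e-04) and 1.82 ± 0.31 (SE, adjusted p 7.0e-04), and PSAT1 and PHGDH, of serine synthesis, by 1.56 ± 0.26 (SE, adjusted p 5.7e-04) and 0.99 ± 0.16 (SE, adjusted p 4.8e-04). HSPA5, the chaperone of the endoplasmic reticulum, rose by 0.49 ± 0.12 (SE, adjusted p 0.0094). ATF4 and DDIT3 gave 0.22 ± 0.11 (SE, adjusted p 0.18) and -0.31 ± 0.23 (SE, adjusted p 0.37), and GDF15, a stress hormone, fell by 1.43 ± 0.27 (SE, adjusted p 0.0014). For 12 of the 28 genes the change after Day 60 exceeded that before it, a difference that 9.34% of all genes passed in either direction.

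Heat-shock genes moved both ways, with 5 of 16 higher and 5 lower. The share called was 62.5% here and 33.3% in both the antioxidant and the ubiquitin ligase lists below. It was 31.8% in the immediate early list and 31.0% in the lysosome list. Over all genes the share was 24.0%, and over those at 100 CPM and over 36.5%. HSPA8, the constitutive HSP70, read 322, 372 and 379 CPM at Day 60 and 825, 894, 715 and 863 CPM at Day 113, a change of 1.20 ± 0.11 (SE, adjusted p 6.4e-06), and HSPH1 and HSP90AA1 rose by 0.80 ± 0.10 (SE, adjusted p 7.7e-05) and 0.60 ± 0.11 (SE, adjusted p 8.4e-04). The small chaperones of muscle HSPB7 and HSPB8 fell by 0.54 ± 0.11 (SE, adjusted p 0.003) and 0.71 ± 0.12 (SE, adjusted p 4.6e-04). Antioxidant genes rose in 7 of 24 cases (4 without Day 60 well 1) and fell in 1. NQO1, a quinone reductase, rose by 2.10 ± 0.51 (SE, adjusted p 0.0078) and PRDX1, a peroxidase, by 0.58 ± 0.12 (SE, adjusted p 0.0023). Muscle ubiquitin ligases and their partners fell in 5 of 18 cases (3 without Day 60 well 1) and rose in 1. KLHL40 and KLHL41, which stabilise thin filament proteins, fell by 2.04 ± 0.40 (SE, adjusted p 0.0019) and 0.88 ± 0.11 (SE, adjusted p 7.2e-05), and the ligase TRIM63 gave 0.09 ± 0.11 (SE, adjusted p 0.65). Of 22 immediate early genes 5 rose and 2 fell (2 rose without Day 60 well 3): EGR1 rose by 1.65 ± 0.27 (SE, adjusted p 4.9e-04), and FOS gave 0.07 ± 0.31 (SE, adjusted p 0.9). Of 29 lysosome and autophagy genes 6 rose and 3 fell (none without Day 60 well 1), and GPNMB, a glycoprotein of lysosomes, rose by 1.76 ± 0.42 (SE, adjusted p 0.0068) with Day 113 well 1 within the Day 60 range.

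WNT genes, which steer early heart formation, fell more often than they rose. Of 33, 3 rose and 12 fell, with a median of -0.47 (6 fell without Day 60 well 1). RSPO3, which amplifies WNT signals, read 3.77, 4.39 and 4.83 CPM at Day 60 and 0.606, 0.412, 0.371 and 0.762 CPM at Day 113, a change of -3.01 ± 0.29 (SE, adjusted p 6.8e-06). LEF1, a nuclear effector, fell by 1.08 ± 0.16 (SE, adjusted p 2.7e-04), and SFRP5, a secreted WNT antagonist, rose by 1.16 ± 0.12 (SE, adjusted p 1.0e-05), while the target AXIN2 gave -0.19 ± 0.16 (SE, adjusted p 0.46). Of 30 genes of the TGF-beta and BMP pathways, 9 fell and 3 rose (5 without Day 113 well 2), with a median of -0.31. ID1 and ID2, targets of BMP signalling, fell by 1.19 ± 0.18 (SE, adjusted p 2.1e-04) and 0.61 ± 0.11 (SE, adjusted p 0.0012), and SMAD9 by 1.28 ± 0.16 (SE, adjusted p 4.5e-05). The ligand TGFB2 fell by 0.77 ± 0.14 (SE, adjusted p 0.0012) and TGFB3 rose by 1.21 ± 0.19 (SE, adjusted p 4.0e-04).

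Lens genes were present at Day 60 and lower at Day 113. Crystallins are the main proteins of the lens of the eye. Of 15 tested, 11 fell and none rose, with a median of -3.29, yet the summed level was 112, 813 and 339.6 CPM at Day 60 and 16.1, 164, 7.85 and 16.8 CPM at Day 113. Day 60 well 2 held most of it, Day 113 well 2 was above Day 60 well 1, and without Day 60 well 2 only 1 gene of the list fell. CRYBA2 read 5.49, 24 and 12.6 CPM at Day 60 and 0.0577, 4.80, 0.285 and 0.401 CPM at Day 113. All Day 113 wells were lower. CRYBA2 fell by 3.36 ± 0.95 (SE, adjusted p 0.022), a call lost without Day 60 well 2 (adjusted p 0.10), without Day 60 well 3 (0.0505), Day 113 well 3 (0.051) or Day 113 well 4 (0.051), under DESeq2 (0.084) and with robust dispersions (0.16). Without Day 113 well 2 its fall was 5.85. LIM2 and CRYBB3 fell by 3.49 ± 1.01 (SE, adjusted p 0.02) and 3.76 ± 0.66 (SE, adjusted p 8.3e-04). The call of LIM2 was lost without Day 60 well 2 (adjusted p 0.17), under DESeq2 (0.16) and with robust dispersions (0.064), its value without Day 113 well 2 was -4.90, and CRYBB3 gave -2.79 without Day 60 well 2 and -4.62 without Day 113 well 2.

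Markers of other lineages were read against shares of 12.9% of all genes called higher and 11.1% called lower. Of 25 endoderm and liver markers, 5 fell and 2 rose (3 fell without Day 60 well 3 and 8 without Day 113 well 2). AFP, alpha-fetoprotein, read 4.56, 8.14 and 5.14 CPM at Day 60 and 1.30, 1.72, 1.60 and 1.16 CPM at Day 113, after a change of -6.40 before Day 60, and its fall of 2.03 ± 0.34 (SE, adjusted p 4.9e-04) was lost under limma-voom (adjusted p 0.11). Of 20 epithelial markers, 8 fell and 2 rose (4 fell without Day 60 well 1). Their summed level overlapped between the days, at 1510, 1506 and 1316 CPM at Day 60 and 1314, 1983, 1491 and 1191 CPM at Day 113. CLDN6, a tight-junction protein of embryonic epithelia, read 17.5, 19.4 and 17 CPM at Day 60 and 1.76, 3.82, 2.25 and 1.60 CPM at Day 113, a change of -2.93 ± 0.21 (SE, adjusted p 4.9e-07). Of 20 neural markers, 3 fell and 1 rose, with NEFM and NEFL, neurofilament genes, at log2 values of -3.82 and -2.35. Cartilage markers gave 2 higher and 2 lower of 13: ACAN, aggrecan, at 0 in every Day 60 well, was at least 21-fold higher with Day 113 well 1 the highest (at least 9.24-fold without that well), and SOX9 rose by 1.24 ± 0.30 (SE, adjusted p 0.0072). Of 4 pluripotency genes tested none was called. LIN28A was at 0 in all Day 113 wells and in Day 60 wells 1 and 3, with 6 counts in Day 60 well 2.

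The change after Day 60 was also set against the change before it, with the 4 Day 30 wells in the same fit. The intervals differed for 1868 genes, 993 with a larger value after Day 60 and 875 with a smaller one. Without Day 60 well 1 this count was 643 and without Day 60 well 3 it was 774. The 5 genes furthest below 0 included the crystallins CRYBA1, CRYBA2, CRYBA4 and CRYGC, which averaged 0.0889, 0, 0 and 0 CPM at Day 30, in that order. The 5 furthest above 0 included MX1, PLG, TNFSF15 and CDH17, which averaged 0.331, 6.48, 5.41 and 10.8 CPM at Day 30 and had 3 counts or fewer in all Day 60 wells together. Of these, MX1 alone exceeded 1 CPM in any Day 113 well. Chosen after their values were seen, better expressed genes with opposite signs before and after Day 60 include TOP2A, with 1.01 before and -1.33 after (adjusted p 0.0016 for the difference), COL12A1, with -1.37 and 2.03 (0.0035), SLC7A5, with -2.88 and 1.67 (3.9e-04), and ENO2, with 0.75 and -1.18 (5.4e-04).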

How the data were processed

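RNA of 4 Day 113, 3 Day 60 and 4 Day 30 wells was compared on the gene counts that the authors deposited. Per the submitters' processing notes, STAR 2.5.3a, featureCounts 2.0.3 and the build hg38 were used; the strand setting is not given in the sources used here. The deposited TPM values were not used, because the gene lengths they imply disagreed between libraries (median Spearman correlation -0.0014 over 55 pairs of libraries). Identity of samples came from the labels.

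The counts of all 11 libraries were fitted together in edgeR 4.0.16 (R 4.3.3) with TMM scaling and the day as the only factor. The quasi-likelihood F-test gave Day 113 over Day 60, and the contrast of that change with Day 60 over Day 30. The filter on low counts (minimum 10) removed 0 of 19990 genes, and p-values were adjusted by Benjamini and Hochberg over all of them. A standard error is the size of the log2 value over the root of its F statistic. The total counts per library ranged from 24.1 M to 34.5 M in the 7 libraries compared, and the biological coefficient of variation was 0.282. A gene at 0 in every well of a day was given a lower bound of fold from 3 counts per library, which covers counting error only. In simulated data with 200 changed genes among 19281, 63% of 2-fold and 87% of 4-fold changes were recovered, with 7 false calls. The changed genes were drawn above a minimum mean count and were far fewer than the genes called in the data. No simulated well deviated by transcript length, so these rates need not hold for the comparison itself.

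The members and gene lists were chosen with earlier results of these data known. Genes were named by a rule: the 12 highest and 12 lowest fold changes among called genes of at least 5 CPM without overlap, the 6 largest CPM gains and losses, up to 4 called members per list and direction, the 5 largest interval differences each way, and set members of each list. ERG, SOX18, FLI1, CLDN5, FLT4, TIE1, IRF9, IFIH1, IL32, HIST1H2AC, TBX20, TBX5, ARID3A, ESRRG, PPARA, CS, HSP90AA1, ID2 and COL12A1 fall outside it and were chosen after their values were seen, as were the genes under the other observations. Some genes that the rule names are not reported here; they stay in the fit and in the list counts. Alternatives were DESeq2 1.42.0, limma-voom (limma 3.58.1), other scalings and filters, robust dispersions, a replicate block, the 7 libraries alone, a stricter threshold and each well left out. Promoter sequences, from 250 bases before to 50 after each start, are RefSeq's (GRCh38.p14).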

Additional observations from a re-analysis of the deposited data

Results flagged for a closer look

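A value is given here where 1 of the 4 Day 113 wells stood apart from the other 3 by Dixon's test; the 3 Day 60 wells were too few for it. Of 283 genes and list sums examined, 19 stood apart, where chance flags about 1 in 20. Day 113 well 2, which deviated by transcript length, was the well in 12 of them, well 1 in 5 and wells 3 and 4 in 1 each.

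In well 2, lens genes were high: CRYBA2 read 4.80 CPM against 0.0577 to 0.401 CPM in the other wells, CRYBA1 20.6 against 0.895 to 2.25 CPM, CRYBA4 20.1 against 0.542 to 1.44 CPM and CRYGC 6.07 CPM against 0 in each. The summed lens list read 164 CPM against 7.85 to 16.8 CPM. Troponin TNNT2 was also high there, at 5816 CPM against 3681 to 3985 CPM, as were the WNT antagonist SFRP5, at 140.3 against 112 to 114 CPM, and PLG, plasminogen, at 0.750 against 0 to 0.115 CPM. The transcription factor TBX20 was low, at 327 against 486 to 519 CPM, and so was PPARA, at 50.7 against 70.3 to 72.8 CPM. Summed heat-shock genes read 10509 CPM against 8493 to 8741 CPM, and summed muscle ubiquitin ligases 1311 against 1211 to 1222 CPM.

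In well 1, CDH5 read 155 CPM against 37.6 to 57.6 CPM, TCF21 7.77 against 3.97 to 4.48 CPM, the connexin GJA5 194 against 106 to 117 CPM and aggrecan, ACAN, 5.63 against 0.883 to 0.998 CPM. HAND1 was lowest there, at 26.6 against 31.4 to 32.2 CPM. In well 3, CS was lowest, at 204 against 218 to 220.2 CPM. In well 4, COL2A1 was highest, at 45.3 against 24.0 to 27.5 CPM.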

How the results depend on the processing

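The count for Day 113 against Day 60 stayed between 3638 and 5444 genes with another scaling, filter, tool, dispersion or the 7 libraries alone, and was 2545 at an adjusted p under 0.01. With a well left out it ranged from 3317 (Day 60 well 1) to 4735 (Day 113 well 2). The interval difference gave 618 genes at an adjusted p under 0.01, and 643 (without Day 60 well 1) to 2221 (without Day 113 well 2) with a well left out, and 774 without Day 60 well 3. Whether well numbers pair the wells was not settled. Deviations of same-numbered Day 60 and Day 113 wells correlated at 0.076, 0.073 and 0.043, and those of other pairs at -0.078 to 0.069. Day 60 wells 1 and 2 correlated best with the Day 113 well of their number, and Day 60 well 3 with Day 113 well 4 (0.069). With the replicate block, 4954 genes were called for Day 113 against Day 60 and 2366 for the interval difference. Depth limits genes under 1 CPM, of which 5.03% were called.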

Other observations

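The gene lists in this section were chosen after values of these wells had been seen, so their counts are descriptions and carry no test of the list. Negative feedback genes and targets of the ERK kinase pathway, through which many growth factors act, were mostly higher at Day 113. Of 19 tested, 15 rose, with a median log2 change of 1.34. DUSP6, a phosphatase that switches ERK off, read 2.90, 2.84 and 3.03 CPM at Day 60 and 30.9, 16.6, 20.7 and 12.7 CPM at Day 113, a change of 2.79 ± 0.28 (SE, adjusted p 1.0e-05). SPRY4, a sprouty inhibitor of receptor signalling, rose by 2.18 ± 0.25 (SE, adjusted p 2.8e-05) and ETV5, a transcription factor induced by ERK, by 1.76 ± 0.22 (SE, adjusted p 6.5e-05). The counts were the same without Day 113 well 2.

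Splicing factors were higher in 21 of 46 cases and lower in 2, with a median of 0.26. SRSF3, a serine and arginine-rich splicing factor, read 76.9, 88.3 and 82.4 CPM at Day 60 and 234, 234, 180.0 and 190.3 CPM at Day 113, a change of 1.34 ± 0.12 (SE, adjusted p 3.5e-06). HNRNPM and DHX9, RNA-binding proteins of the nucleus, rose by 1.47 ± 0.13 (SE, adjusted p 4.8e-06) and 1.06 ± 0.10 (SE, adjusted p 6.8e-06), whereas HNRNPC fell by 0.49 ± 0.09 (SE, adjusted p 0.0014). Of 30 proteasome subunits, 20 rose, with a median of 0.40, and of 18 tRNA synthetases 7 rose and 1 fell, with the tryptophan enzyme WARS higher by 1.67 ± 0.15 (SE, adjusted p 4.6e-06). WARS is also an interferon-inducible gene.

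Of 18 circadian clock genes, 3 rose and 7 fell, with a median of -0.26. DBP, an output factor of the clock, read 28, 23.3 and 21.3 CPM at Day 60 and 5.74, 8.59, 10.4 and 6.86 CPM at Day 113, a change of -1.61 ± 0.18 (SE, adjusted p 2.5e-05). NR1D1 and PER1, repressors in the clock loop, fell by 1.36 ± 0.21 (SE, adjusted p 2.7e-04) and 0.81 ± 0.15 (SE, adjusted p 0.0011). NPAS2, an activator in the same loop, rose by 0.86 ± 0.20 (SE, adjusted p 0.0062). The hour of collection is not given in the sources used here, and its part in these values was not tested.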
